A study of Mus musculus with 17 samples.

Results

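The nuclear genes that encode respiratory complexes II, III, IV and V were examined in the diaphragm of mice with and without Lewis lung carcinoma (LLC). Members were taken by symbol alone: Sdha, Sdhb, Sdhc and Sdhd for complex II, Cyc1 and the symbols starting with Uqcr for complex III, those starting with Cox4 to Cox8 for complex IV, and those starting with Atp5 for complex V. Symbols with a hyphen were left out, which removed 4 pseudogene rows that were listed at 0 in each of the 17 mice. This gave 48 of the 47643 symbols in the table, namely 4 in complex II, 9 in complex III, 18 in complex IV and 17 in complex V. Of these, 46 reached 1 TPM (a transcript's share of its library, corrected for gene length, which sums to 1000000) in at least 3 mice and entered the tests. The other two were Cox7b2, at most 0.293 TPM, and Cox8c, at most 0.0819 TPM, both testis forms of complex IV subunits. The name rule also took 3 genes that are not subunits of their complex: Cox7a2l, a factor that joins complexes III and IV into supercomplexes, Atp5s, coupling factor B, and Atp5sl, a related gene also called Dmac2.

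The diaphragm, the main muscle of breathing, came from male C57BL/6J mice aged 4 months. LLC cells, a mouse lung tumor line, were injected under the skin of the flanks of some mice, and recombinant mouse Fibcd1 (rFibcd1), a protein that muscle secretes, was injected into the peritoneal cavity in the last week. The groups were Control (tumor-free, mock-injected, n = 5), Control + rFibcd1 (tumor-free, n = 5), LLC (tumor-bearing, mock-injected, n = 3) and LLC + rFibcd1 (tumor-bearing, n = 4). The mock solution was albumin in saline, and no transgene or gene deletion was present in any group. The tumors grew from a single line, and whole muscle was sequenced, so the samples hold every cell type of the tissue.

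Complex II, succinate dehydrogenase, links the citrate cycle to the respiratory chain and is the complex whose subunits are all encoded in the nucleus. Complex III passes electrons from ubiquinol to cytochrome c, complex IV (cytochrome c oxidase) passes them on to oxygen, and complex V (ATP synthase) uses the resulting proton gradient to make ATP; in these complexes the nuclear subunits are built around a core encoded by mitochondrial DNA. Striated muscle is rich in these complexes and uses its own forms of several complex IV subunits, Cox6a2, Cox7a1 and Cox8b, in place of the ubiquitous Cox6a1, Cox7a2 and Cox8a.

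Depth, estimated from the steps of low values, was 50700000 to 54500000 reads per mouse. The skeletal actin gene Acta1 stood at 19855 to 25160 TPM in all 17 libraries. Mitochondrially encoded transcripts took 45.9% to 48.4% of TPM in Control and 41.3% to 44.3% in LLC. Across all 13305 genes tested, LLC vs Control gave a median log2 change of 0.16 on the TPM scale, so a gene at that median reads as higher. All 10 B cell markers were higher in LLC than in Control, with sums of 290, 261 and 329 TPM in LLC against 2.96 to 111 in Control and 21.3 to 321 in LLC + rFibcd1. All 9 T cell, all 6 neutrophil and 5 of 8 macrophage markers tested were higher too, and the sums of these lists in LLC did not overlap with Control. Of the myofiber structure genes, 12 of 20 fell in LLC. Over all genes tested, 29.7% were called higher and 6.02% lower in this comparison. The adjusted calls depended on single LLC mice. Without LLC replicate 3, genes called by limma in LLC vs Control went from 4759 to 24, and without LLC replicate 1 to 2272. Without LLC replicate 3, 4508 genes still had an unadjusted p under 0.05 by limma, against 6422 with all mice. The all-gene median was then 0.13. In whole tissue, fewer muscle cells and less RNA per muscle cell cannot be told apart.

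In Control, the members together held 3.57% to 3.76% of all TPM. TPM is corrected for length, so levels can be compared between genes. Summed over members, complex IV stood highest at 15120 ± 382 TPM in Control (SD, n = 5), followed by complex V at 12385 ± 279, complex III at 6734 ± 158 and complex II at 2120 ± 80. These sums run over 18, 17, 9 and 4 members, so they are not levels per gene. The median tested member in Control stood at 769 TPM in complex III, 693 in complex IV, 595 in complex II and 477 in complex V. The muscle forms Cox8b and Cox6a2 averaged 3034 TPM and 2729 TPM in Control, the highest levels of any member, and Atp5a1, the catalytic-head alpha subunit of ATP synthase, followed at 2104 TPM. Levels spanned a narrow range in complex II (235.5 to 694 TPM) and complex III (458 to 1102 TPM). The range was far wider in complex V (16.8 to 2104 TPM) and complex IV (1.66 to 3034 TPM), where Cox6b2, a testis form, sat at the bottom of the genes that passed.

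LLC vs Control asks which of these genes differ when a tumor is present. Most members fell in LLC on the TPM scale. The summed level of all members was 32451, 32989 and 29669 TPM in the 3 LLC mice against 35666 to 37625 TPM in the 5 Control mice. The groups did not overlap, and the LLC mean was 87.2% of the Control mean. By limma's test, 33 of the 46 members were lower and 1 was higher at an adjusted p under 0.05, where 6.02% of all genes tested were called lower and 29.7% higher. The median log2 change over the members was -0.19, or -0.35 against the all-gene median. Values of LLC and Control mice did not overlap for 34 members on the lower side and 1 on the higher side, against 6.67% and 33.6% of all genes.

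These calls rested on LLC replicate 3 and on the scale. Without that mouse 1 member, Cox7a1, was called, and the median change was -0.15. The sign of the median depended on the scale: relative to the 20 myofiber structure genes the members' median was 0.04, with 8 higher and 1 lower, where 59.7% of all genes were higher and 0.346% lower around a median of 0.35. Median-ratio scaling gave -0.40 with 41 members lower, where 15.3% of all genes were. With the B cell markers' score in the model no member was called by limma (29 at an unadjusted p under 0.05), and the median change was -0.13. In that model 0.0526% of all genes were called and 12.6% reached an unadjusted p under 0.05. B cell marker sums did not overlap between LLC and Control, so the model separates the score from the group only in part. Set against the all-gene median, the median of each complex was below 0 under each scaling, block or covariate tried.

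**Figure D1:**
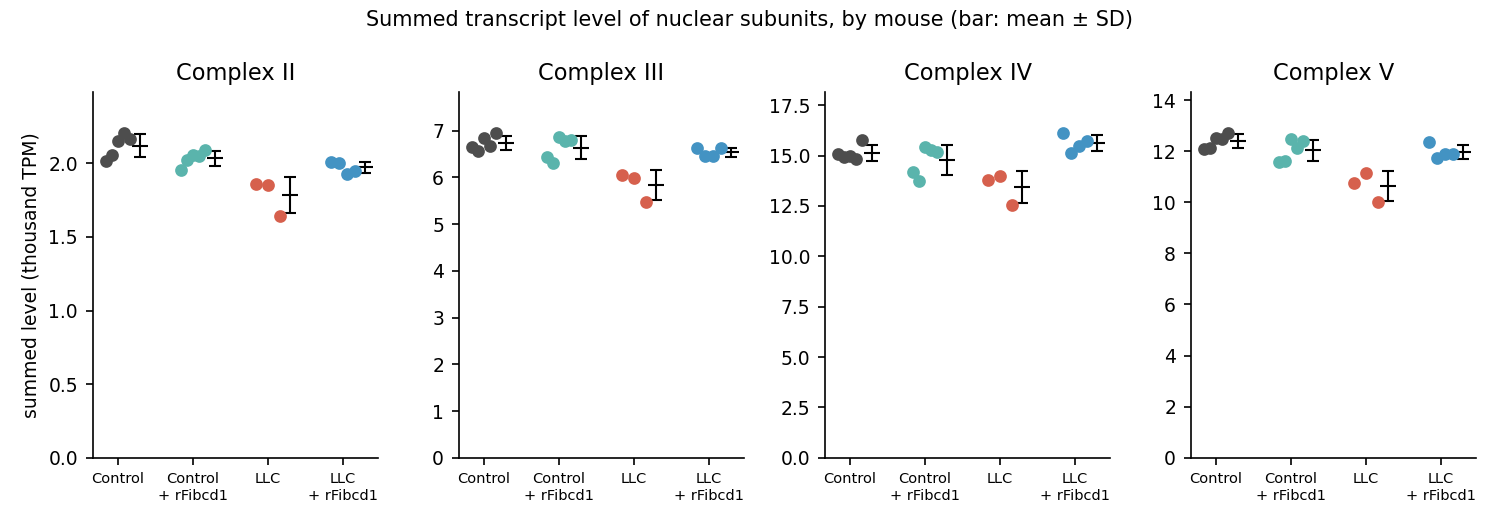
Summed TPM of the members of each complex in each mouse, by group, with the mean and SD beside the points. All 3 LLC mice lie below all 5 Control mice in complexes II, III, IV and V on this TPM scale, and the LLC + rFibcd1 mice lie above the LLC mice in each complex. Scaled to myofiber genes, the LLC medians of complexes IV and V turn slightly positive.

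The complexes differed in how many members were called. In LLC vs Control, all 4 members of complex II and all 9 of complex III were lower, with median changes of -0.23 and -0.24. In complex V, 13 of 17 were lower with a median of -0.19. In complex IV, 7 of the 16 members tested were lower and 1 higher, with a median of -0.16. The complex IV median was the least negative of the 4 complexes under each scaling tried, and under the myofiber scaling it was 0.07 against -0.01 in complex II, -0.02 in complex III and 0.03 in complex V. The complex IV set includes Cox6a1, Cox8a, Cox6b2, Cox4i2 and Cox7a2l, whose changes were positive. Its median and its share of lower members therefore depend on which genes the name rule took. No test was run between complexes.

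**Figure D2:**
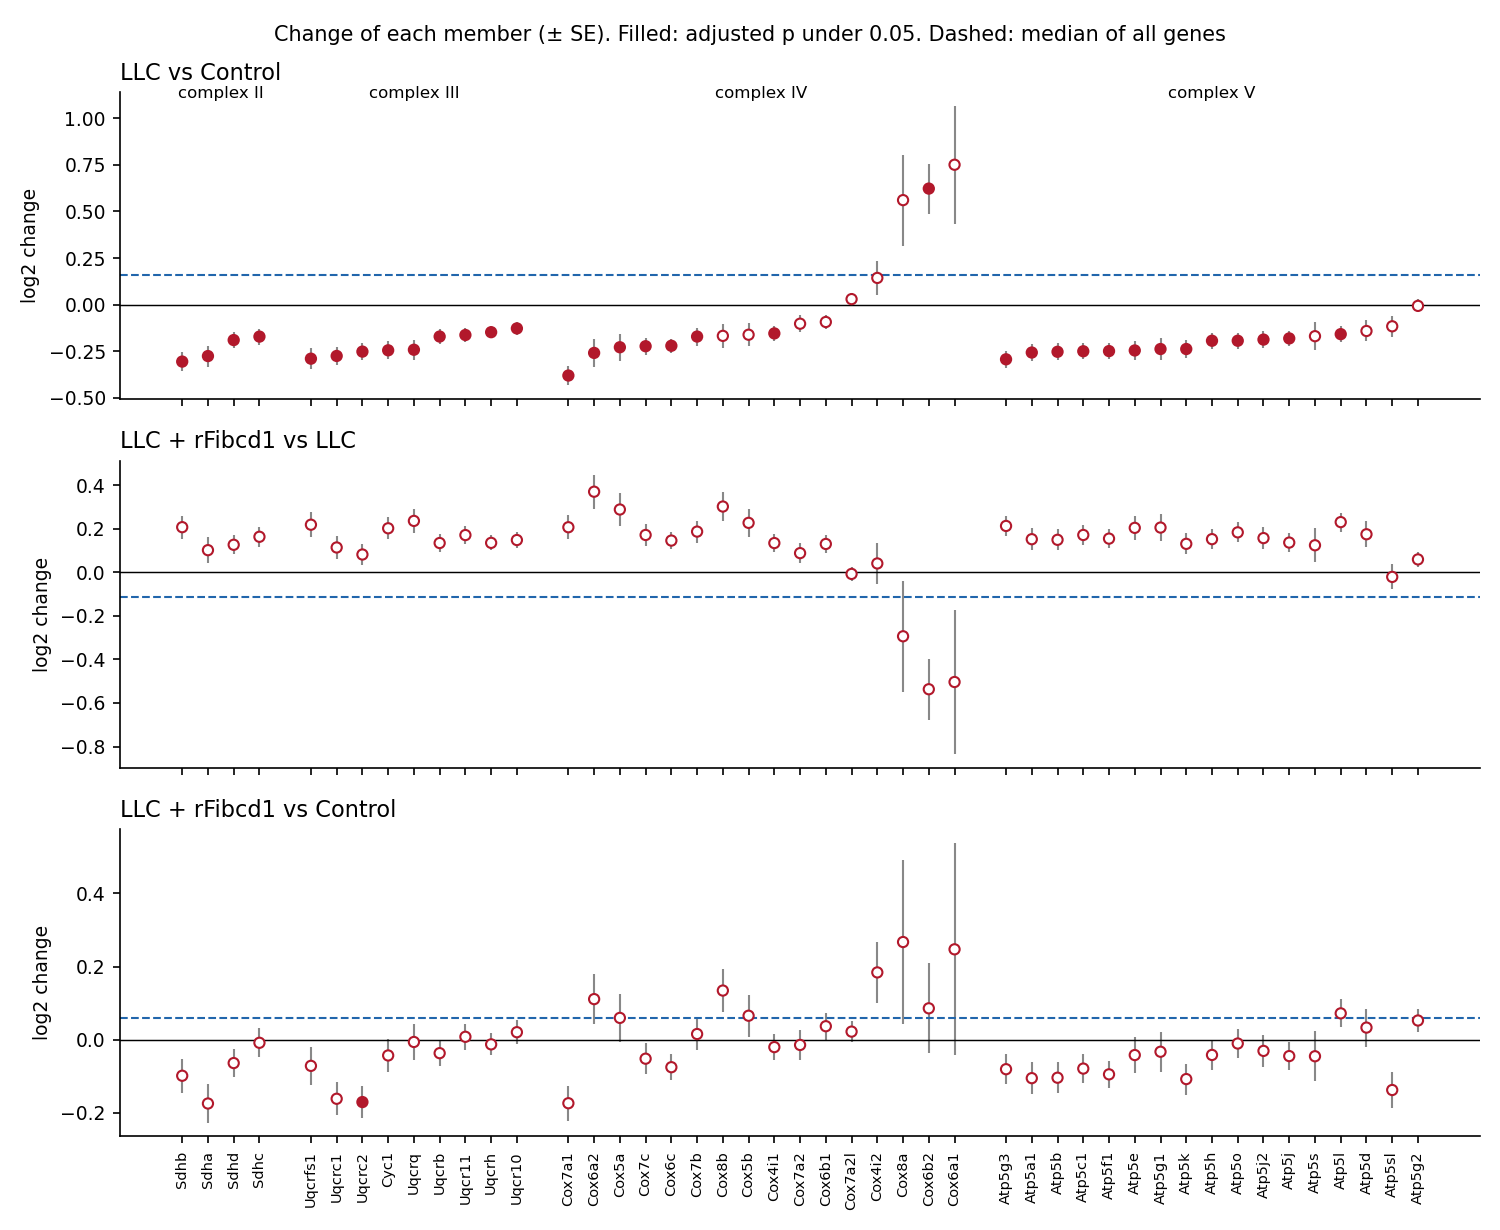
Log2 change with its standard error for each of the 46 members, grouped by complex, in 3 comparisons on the TPM scale. Filled points passed an adjusted p under 0.05 by limma, and the dashed line is the median over all genes. In LLC vs Control all members of complexes II, III and V lie below 0, while 5 complex IV members lie above it. With myofiber scaling, most of these changes shrink to about 0 or turn positive.

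In complex II, Sdhb, the iron-sulfur subunit that carries electrons to ubiquinone (chr4:140961203-140979193, plus strand), changed most. Sdhb stood at 615, 638, 641, 664 and 667 TPM in Control and at 531, 562 and 475 TPM in LLC. Each LLC mouse lay below the lowest Control mouse, and the log2 change was -0.31 (SE 0.05, limma adjusted p = 0.0073). Sdha, the flavoprotein that oxidizes succinate, stood at 661, 648, 702, 750 and 708 TPM in Control and at 620, 576 and 524 TPM in LLC, a log2 change of -0.28 (SE 0.06, limma adjusted p = 0.0097). The 2 membrane anchors moved less. Sdhd went from 513 to 565 TPM in Control to 445 to 501 TPM in LLC (-0.19, limma adjusted p = 0.010). Sdhc went from 229 to 243 TPM to 199 to 222 TPM (-0.17, limma adjusted p = 0.013). Both catalytic subunits had larger changes than both anchors, a difference that was not tested.

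In complex III all parts of the enzyme were lower. The Rieske protein Uqcrfs1 and cytochrome c1 (Cyc1), which move the electrons, changed by -0.29 and -0.25. The core proteins Uqcrc1 and Uqcrc2, which form the matrix side, changed by -0.28 and -0.25. The 5 small subunits, Uqcrb, Uqcrq, Uqcrh, Uqcr10 and Uqcr11, changed by -0.24 to -0.13 with a median of -0.16. Uqcrc1 stood at 460, 454, 487, 493 and 494 TPM in Control and at 423, 402 and 360 TPM in LLC (SE 0.05, limma adjusted p = 0.0080). Uqcrc2 (chr7:120635176-120659524, plus strand) stood at 548, 547, 587, 588 and 585 TPM in Control and at 515, 492 and 434 TPM in LLC (SE 0.05, limma adjusted p = 0.0084). Uqcr10, the member with the smallest change, stood at 869, 868, 899, 858 and 887 TPM in Control and at 804, 817 and 785 TPM in LLC (-0.13, SE 0.04, limma adjusted p = 0.018). Even for Uqcr10 the groups did not overlap on the TPM scale, though relative to myofiber genes its change was 0.10.

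In complex V, 4 of the 5 subunits of the catalytic head and stalk were lower, all 4 of the peripheral stalk (Atp5f1, Atp5h, Atp5j, Atp5o), which holds the head still, and all 3 small membrane subunits (Atp5j2, Atp5k, Atp5l). Medians were -0.25, -0.19 and -0.19. Atp5d, the delta subunit of the stalk, was the head member that did not pass (-0.14, limma adjusted p = 0.061). Atp5f1, the b subunit of the peripheral stalk, stood at 375, 365, 389, 388 and 403 TPM in Control and at 324, 345 and 301 TPM in LLC (-0.25, SE 0.04, limma adjusted p = 0.0073). Neither gene outside the enzyme itself passed: Atp5s changed by -0.17 (limma adjusted p = 0.083) and Atp5sl by -0.12 (limma adjusted p = 0.11).

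The c ring, the rotor through which protons pass, is encoded by 3 genes for one mature protein, and these genes did not move alike. Atp5g3, the most abundant, stood at 871, 871, 891, 872 and 910 TPM in Control and at 709, 772 and 682 TPM in LLC (-0.29, SE 0.05, limma adjusted p = 0.0072). Atp5g1 went from 286 to 336 TPM to 245 to 285 TPM (-0.24, limma adjusted p = 0.013). Atp5g2 stood at 250, 255, 248, 257 and 249 TPM in Control and at 243, 257 and 252 TPM in LLC, so the groups overlapped. Its log2 change was -0.01, with a 95% interval of -0.08 to 0.07 (limma adjusted p = 0.89). The log2 ratio of Atp5g2 to Atp5g3, which scaling a mouse by 1 factor does not alter, was -1.87 to -1.76 in Control, -1.59 to -1.44 in LLC and -1.75 to -1.63 in LLC + rFibcd1. All 7 tumor-bearing mice thus had a higher ratio than the 10 tumor-free mice, whose highest value was -1.76. The 3 genes make the same mature protein from distinct transcripts, and how the authors' counting divided shared reads was not stated.

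Cox7a1 (chr7:30184144-30186078, plus strand), the form of subunit 7a in heart and skeletal muscle, changed most of all members that fell. It stood at 1514, 1518, 1606, 1458 and 1575 TPM in Control, at 1177, 1242 and 1118 TPM in LLC and at 1335, 1316, 1367 and 1424 TPM in LLC + rFibcd1. No LLC or LLC + rFibcd1 mouse reached the lowest Control mouse, and the change in LLC vs Control was -0.38 (SE 0.05, limma adjusted p = 0.0046), or 76.8% of the Control level. Cox7a1 was the member whose call held when any single mouse was left out, with adjusted p of at most 0.047 by limma. It was also lower after scaling to the myofiber genes (-0.15, limma adjusted p = 0.019). The call was lost with the B cell score in the model (-0.31, limma adjusted p = 0.095), with a replicate block (limma adjusted p = 0.053) and by Dunn's test (adjusted p = 0.12). Over all genes tested, 0.0526%, 0.0376% and 0% were called under these settings, in that order. The ubiquitous form Cox7a2 stood at 574, 574, 544, 531 and 567 TPM in Control and at 512, 534 and 513 TPM in LLC, and did not pass (-0.10, limma adjusted p = 0.082).

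The ratio of the 2 forms was also apart. The log2 ratio of Cox7a1 to Cox7a2 was 1.40, 1.40, 1.56, 1.46 and 1.47 in Control, 1.20, 1.22 and 1.12 in LLC, and 1.20, 1.31, 1.34 and 1.35 in LLC + rFibcd1. Neither tumor-bearing group overlapped with Control, and LLC and LLC + rFibcd1 overlapped with each other. The Control + rFibcd1 mice, at 1.28 to 1.49, overlapped with both Control and LLC + rFibcd1. A ratio within a mouse shows unequal change of the 2 genes and not which of them moved.

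**Figure D3:**
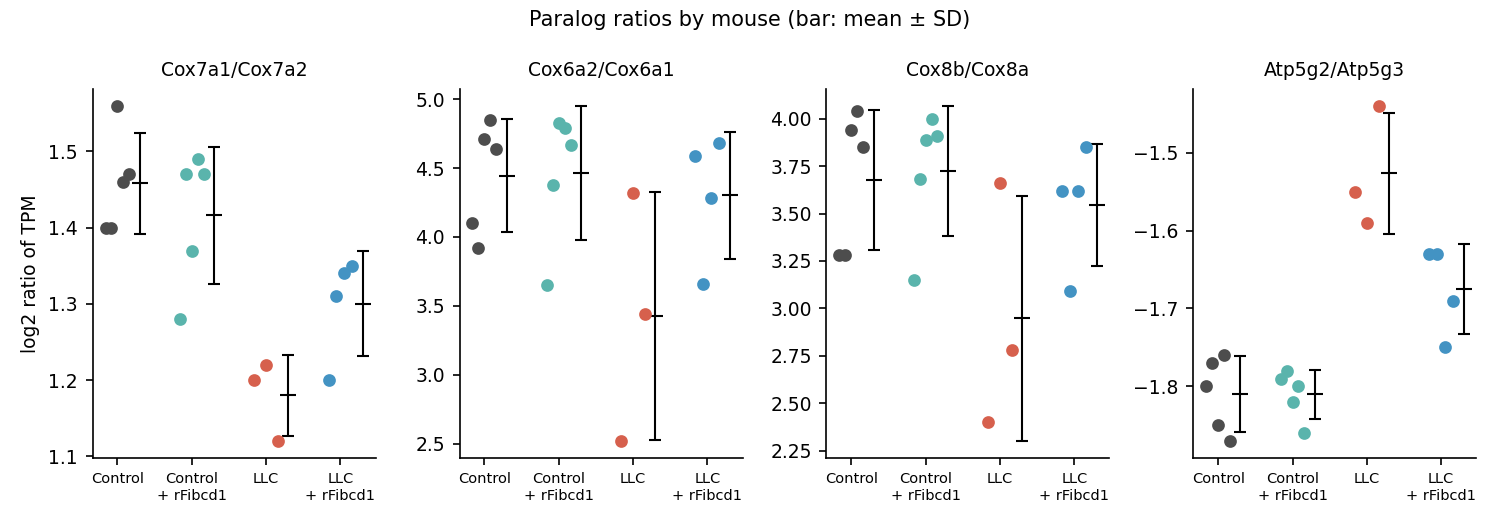
Log2 ratio of TPM for 4 pairs of genes that encode forms of the same subunit, by mouse, with mean and SD. Cox7a1/Cox7a2 in LLC lies between 1.12 and 1.22, below all Control mice, and Atp5g2/Atp5g3 lies higher in all tumor-bearing mice, whereas Cox6a2/Cox6a1 and Cox8b/Cox8a in LLC overlap with Control. The vertical axes do not start at 0.

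The promoters of genes that encode forms of the same subunit are shown so that their letters can be set side by side. Each line gives the 250 bases before the annotated start, 5′ to 3′ on the gene's strand, from RefSeq on GRCm38.p6. Capitals mark matches on either strand to 5 motifs of factors that drive respiratory genes: NRF1 (GCGCA, any base, GCGC), ERR (AAGGTCA), ETS, which GABP binds (CCGGAAG), YY1 (AANATGGCG) and SP1 (GGGCGG).
Cox7a1, chr7:30183921-30184170, plus strand: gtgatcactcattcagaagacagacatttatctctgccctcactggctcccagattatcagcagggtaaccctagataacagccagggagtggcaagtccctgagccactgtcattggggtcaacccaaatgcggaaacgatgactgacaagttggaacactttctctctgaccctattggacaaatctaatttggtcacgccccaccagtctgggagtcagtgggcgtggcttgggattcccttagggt
Cox7a2, chr9:79759854-79760103, minus strand: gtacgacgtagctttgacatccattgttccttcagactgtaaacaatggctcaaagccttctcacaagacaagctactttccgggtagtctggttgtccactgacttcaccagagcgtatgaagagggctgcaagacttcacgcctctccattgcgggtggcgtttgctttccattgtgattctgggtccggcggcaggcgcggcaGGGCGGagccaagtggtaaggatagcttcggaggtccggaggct
Cox8b, chr7:140900447-140900696, minus strand: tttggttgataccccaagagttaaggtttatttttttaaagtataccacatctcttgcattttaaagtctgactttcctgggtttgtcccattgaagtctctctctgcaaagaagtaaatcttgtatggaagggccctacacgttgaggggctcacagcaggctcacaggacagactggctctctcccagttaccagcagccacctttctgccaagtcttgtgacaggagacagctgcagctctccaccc
Cox8a, chr19:7217617-7217866, minus strand: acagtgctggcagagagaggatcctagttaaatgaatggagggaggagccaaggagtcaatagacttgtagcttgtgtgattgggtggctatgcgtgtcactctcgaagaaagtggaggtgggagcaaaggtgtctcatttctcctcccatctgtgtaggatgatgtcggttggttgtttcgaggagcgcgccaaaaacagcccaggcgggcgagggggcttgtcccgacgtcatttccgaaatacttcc
Cox6a1, chr5:115348959-115349208, minus strand: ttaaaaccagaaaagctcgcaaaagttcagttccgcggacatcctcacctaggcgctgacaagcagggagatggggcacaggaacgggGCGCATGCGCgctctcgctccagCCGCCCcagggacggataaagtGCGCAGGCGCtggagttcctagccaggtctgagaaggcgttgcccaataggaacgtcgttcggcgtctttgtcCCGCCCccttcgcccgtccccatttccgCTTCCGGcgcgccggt
Atp5g3, chr2:73911327-73911576, minus strand: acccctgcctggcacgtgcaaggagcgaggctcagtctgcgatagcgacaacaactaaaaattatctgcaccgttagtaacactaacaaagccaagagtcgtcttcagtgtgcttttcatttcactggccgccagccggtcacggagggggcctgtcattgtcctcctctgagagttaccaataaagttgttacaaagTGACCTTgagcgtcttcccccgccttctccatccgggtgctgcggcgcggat
Atp5g2, chr15:102671048-102671297, minus strand: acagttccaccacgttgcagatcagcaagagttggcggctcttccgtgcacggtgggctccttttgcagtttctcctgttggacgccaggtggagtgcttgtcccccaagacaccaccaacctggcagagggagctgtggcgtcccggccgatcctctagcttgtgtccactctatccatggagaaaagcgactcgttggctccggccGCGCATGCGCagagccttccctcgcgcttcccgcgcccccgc
The windows of the muscle forms Cox7a1 and Cox8b held none of the 5 motifs. Cox6a1 held 2 NRF1, 2 SP1 and 1 ETS match, and Cox7a2 held 1 SP1 match. Cox8a had 2 ETS matches, but neither is in capitals here, since 1 ran across the annotated start and the other lay after it. Atp5g3 held 1 ERR match and Atp5g2 1 NRF1 match before the start. Atp5g3 also had 1 NRF1 match after the start and Atp5g2 1 SP1 match across it, neither in capitals here. Matches describe letters only, and a window without a match says nothing about whether a factor binds.

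Cox6a1 and Cox8a, the ubiquitous forms of subunits 6a and 8, were 2 of the 5 members with a positive value in LLC vs Control, and neither passed the adjusted test. Cox6a1 stood at 371, 130 and 196 TPM in LLC and at 153, 169, 104, 102 and 113 TPM in Control. LLC replicate 1 was highest, and 1 LLC mouse lay within the Control range. Its log2 change was 0.75, with a 95% interval of 0.08 to 1.42 (SE 0.32, limma adjusted p = 0.073). Cox8a stood at 517, 231 and 360 TPM in LLC and at 309, 302, 197, 181 and 224 TPM in Control, with a log2 change of 0.56 (SE 0.24, limma adjusted p = 0.083). Both values rested on single LLC mice. Without LLC replicate 1 the changes were 0.35 and 0.28 (limma adjusted p of 0.41 and 0.42), and without LLC replicate 2 both passed, at 1.10 (limma adjusted p = 0.022) and 0.86 (limma adjusted p = 0.019). The muscle forms at the same positions fell or did not pass: Cox6a2 went from 2552 to 2930 TPM in Control to 2132, 2602 and 2130 TPM in LLC (-0.26, limma adjusted p = 0.019), and Cox8b from 2935 to 3230 TPM to 2720, 2927 and 2472 TPM (-0.17, limma adjusted p = 0.051).

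White adipocyte markers, a list of 6 genes, varied with these 2 forms from mouse to mouse. Their sum was 3928, 1060 and 1854 TPM in LLC and 597 to 1772 TPM in Control, and 0 of the 6 passed limma's adjusted test in LLC vs Control (2 at an unadjusted p under 0.05). Adiponectin (Adipoq), which white fat secretes, stood at 436, 94.7 and 218 TPM in LLC and at 26.4 to 175 TPM in Control. Over the 17 mice the mean log2(TPM + 1) of the 6 markers correlated with log2(TPM + 1) of Cox6a1 (Pearson r = 0.93) and Cox8a (r = 0.93). After the group means were removed the values were 0.89 and 0.90. These are descriptions over mice that share groups and a scale. Among the other members, Cox6b2 had r = 0.76 within groups with these markers, 0.71 with B cell and 0.70 with macrophage markers, while most members had negative values, down to -0.76 for Atp5s, with Cox7a1 at -0.66, Cox6a2 at -0.61 and Cox8b at -0.54. The brown fat gene Ucp1 was at 213, 0.0243 and 5.96 TPM in LLC and at 16.5, 62.3, 0, 0 and 0 TPM in Control. The 7 brown adipocyte markers that include it summed to 4647, 4482 and 3884 TPM in LLC and to 4837 to 5178 TPM in Control, with 2 lower and 0 higher by limma, but that list also holds the members Cox7a1 and Cox8b, which muscle expresses. Over all genes tested in LLC vs Control, limma called 29.7% higher and 6.02% lower, and 48.3% reached an unadjusted p under 0.05. The part of adipose tissue in the levels of Cox6a1 and Cox8a was not tested.

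**Figure D4:**
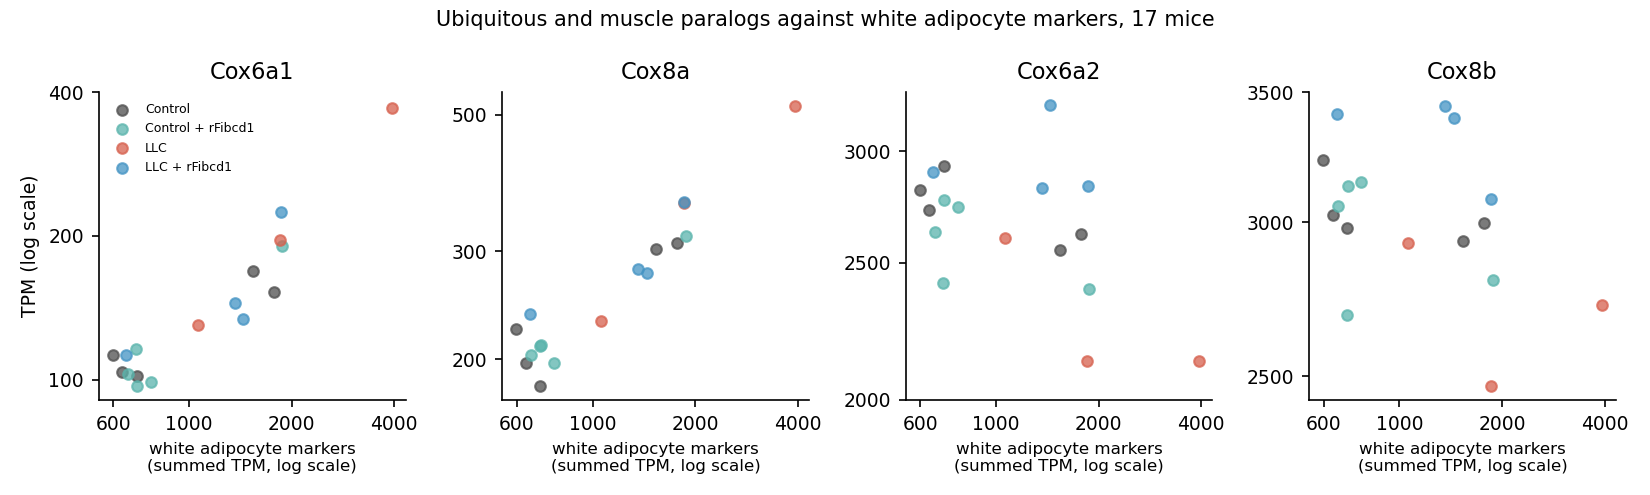
TPM of the ubiquitous forms Cox6a1 and Cox8a and the muscle forms Cox6a2 and Cox8b against the summed TPM of 6 white adipocyte markers, each point 1 of 17 mice, on log axes with ranges that differ between panels. Cox6a1 and Cox8a are higher in mice with more marker TPM, and LLC replicate 1, at 3928 TPM of markers, holds the highest level of both.

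The other complex IV members included forms that are scarce in muscle. Cox6b2 (chr7:4751792-4753094, minus strand), a testis form of subunit 6b, was the member called higher in LLC. It stood at 3.40, 2.59 and 3.28 TPM in LLC and at 1.90, 2.00, 1.36, 1.73 and 1.31 TPM in Control, which did not overlap (0.62, SE 0.13, limma adjusted p = 0.010). At these levels it rested on an estimated 30 to 94 reads per mouse, and the ubiquitous form Cox6b1 was at 1115 to 1246 TPM in the same LLC mice. Cox4i2, a form found mainly in lung and vessel walls, stood at 8.29, 9.41 and 8.13 TPM in LLC and at 6.99 to 8.33 TPM in Control and did not pass (0.14, limma adjusted p = 0.21), while the common form Cox4i1 was lower (-0.15, limma adjusted p = 0.013). Cox6c, a single-gene subunit, stood at 299, 310, 309, 291 and 312 TPM in Control and at 260, 271 and 252 TPM in LLC (-0.22, SE 0.04, limma adjusted p = 0.0080). Cox5a was lower (-0.23, limma adjusted p = 0.026), and its partner Cox5b at -0.16 was not called (limma adjusted p = 0.057). Cox7a2l, the supercomplex factor, stood at 284, 277 and 284 TPM in LLC and at 267 to 281 TPM in Control, with a log2 change of 0.03 and a 95% interval of -0.04 to 0.09. The sign of the Cox7a2l value depended on the scale, being -0.18 under median-ratio scaling.

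LLC + rFibcd1 vs LLC asks whether rFibcd1 moves these genes in tumor-bearing mice. Most members stood higher with rFibcd1, but no member passed the adjusted test. The summed level of all members was 37109, 35330, 35748 and 36142 TPM with rFibcd1 against 32451, 32989 and 29669 TPM in LLC. All 4 treated mice lay above all 3 untreated mice, and the treated mean was 99.2% of the Control mean where the LLC mean was 87.2%. By limma 0 of 46 members were called at an adjusted p under 0.05, where 0.113% of all genes tested were. Limma gave 36 members an unadjusted p under 0.05, 35 higher and 1 lower, against 22.7% of all genes. By Dunn's test 0 members and 0% of all genes passed after adjustment. Values did not overlap between the groups for 35 members on the higher side, against 5.26% of all genes tested. The median log2 change was 0.15, which lay 0.27 above the all-gene median. The median was positive under each scaling tried, from 0.07 with the myofiber scaling to 0.30 with the median-ratio scaling. B cell marker sums were 261 to 329 TPM in LLC and 21.3 to 321 TPM in LLC + rFibcd1. With the B cell score in the model, 6.4% of all genes reached an unadjusted p under 0.05 by limma. Without LLC replicate 2, 3 members passed.

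The highest values in this comparison belonged to the complex IV muscle forms Cox6a2 and Cox8b, while the muscle form Cox7a1 was at 0.21, below Cox5a at 0.29. Cox6a2 (chr7:128205435-128206387, minus strand) stood at 3235, 2836, 2825 and 2900 TPM with rFibcd1 against 2132, 2602 and 2130 TPM without, a log2 difference of 0.37 with a 95% interval of 0.20 to 0.54 (limma adjusted p = 0.088). Cox8b stood at 3394, 3084, 3442 and 3409 TPM against 2720, 2927 and 2472 TPM, a difference of 0.30 with an interval of 0.16 to 0.44 (limma adjusted p = 0.098). For both genes all treated tumor-bearing mice were above all untreated ones. Atp5l, the g subunit of ATP synthase, had the smallest adjusted p, with 1892, 1825, 1818 and 1753 TPM against 1515, 1657 and 1490 TPM (0.23, limma adjusted p = 0.058). Medians by complex were 0.14 in complex II, 0.15 in complex III, 0.14 in complex IV and 0.15 in complex V. Cox6b2 (-0.54), Cox6a1 (-0.50) and Cox8a (-0.29) had the lowest values, and none of these passed (limma adjusted p of 0.13, 0.33 and 0.45). Without LLC replicate 1 the values were -0.10 for Cox6a1 and -0.013 for Cox8a, and without LLC replicate 2 they were -0.85 and -0.59.

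LLC + rFibcd1 vs Control shows where the treated tumor-bearing mice stood against tumor-free ones, and it shares the Control mice with LLC vs Control. The median member change was -0.03, and 1 of 46 members, Uqcrc2, was called lower, where 1.01% of all genes tested were. Uqcrc2 stood at 512, 509, 504 and 504 TPM in LLC + rFibcd1, below the lowest Control mouse at 547 TPM (-0.17, SE 0.04, limma adjusted p = 0.044). Of 17 refits with 1 mouse removed, 4 kept the call, with adjusted p up to 0.12. Groups did not overlap on the lower side for 7 members, against 2.92% of all genes tested: Sdha, Uqcrc1, Uqcrc2, Cox7a1, Atp5f1, Atp5g3 and Atp5k. Sdha was at 639, 633, 589 and 596 TPM (-0.17, limma adjusted p = 0.081), Uqcrc1 at 435, 414, 423 and 436 TPM (-0.16, limma adjusted p = 0.064) and Cox7a1 at -0.17 (limma adjusted p = 0.062). With myofiber scaling the median was 0.11 and 12 members were higher, where 7.90% of all genes were higher around a median of 0.18.

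The complexes were also compared within each mouse, with Cox6a1, Cox8a, Cox6b2, Cox4i2 and Cox7a2l again part of complex IV. Per mouse, the median member of complex II stood at -0.11 to -0.07 relative to the Control mean in LLC + rFibcd1, and that of complex IV at 0.00 to 0.08. The gap between complex IV and complex II was 0.08 to 0.16 in LLC + rFibcd1, 0.07 to 0.11 in LLC, -0.09 to 0.05 in Control and -0.07 to 0.08 in Control + rFibcd1. A single scaling factor per mouse does not alter this gap beyond the pseudocount. All 7 tumor-bearing mice had gaps above the 5 Control mice, while the Control + rFibcd1 mice reached up to the tumor-bearing values. The gap between complex IV and complex III was 0.012 to 0.086 in LLC + rFibcd1 and 0.047 to 0.099 in LLC, and both overlapped with Control at -0.035 to 0.048. The gap between complex IV and complex V was 0.035 to 0.112 in LLC + rFibcd1 and 0.031 to 0.090 in LLC, above Control at -0.051 to 0.018 but overlapping with Control + rFibcd1 at -0.035 to 0.052. By sums, complex IV in LLC + rFibcd1 was 103.0% of its Control mean, complex III 97.1%, complex V 96.5% and complex II 93.1%.

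**Figure D5:**
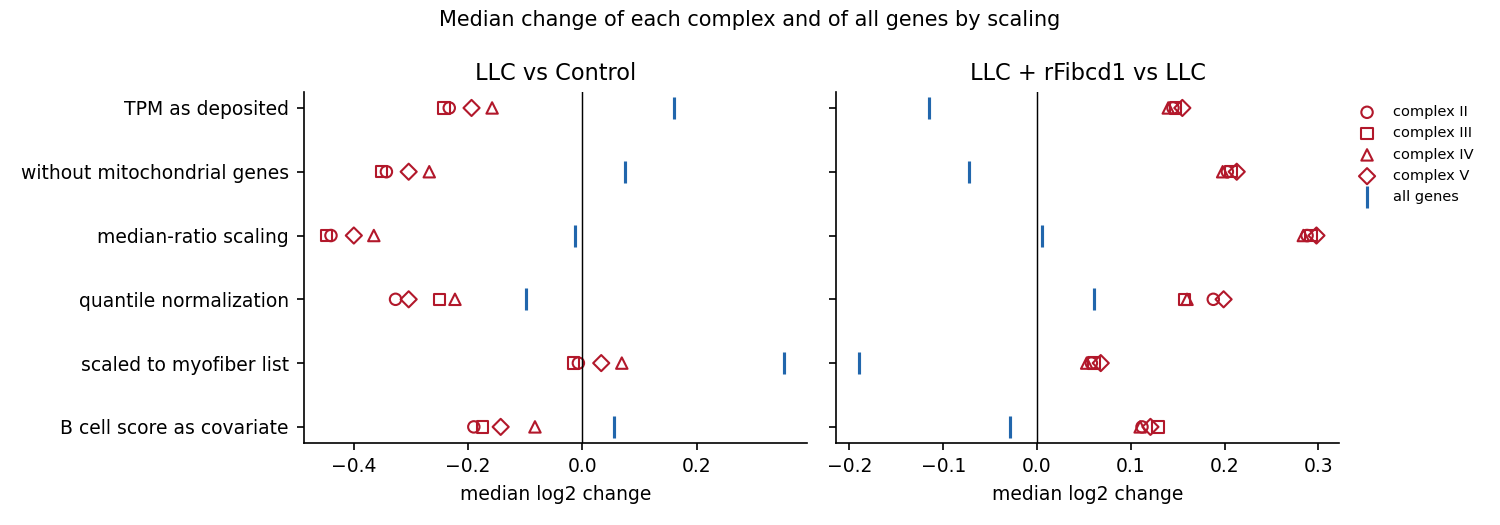
Median log2 change of the members of each complex (open symbols) and of all genes (vertical bars) under 6 ways of scaling or adjusting the values. The distance between the complexes and all genes keeps its direction under each setting drawn, with the members below all genes in LLC vs Control and above them in LLC + rFibcd1 vs LLC, while the position against 0 shifts. With the myofiber scaling the LLC vs Control medians lie between -0.02 and 0.07.

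Control + rFibcd1 vs Control gives the effect of the protein without a tumor. By limma 0 of 46 members were called at an adjusted p under 0.05, where 0% of all genes tested were, and 0 members reached an unadjusted p under 0.05, by limma or by Dunn's test, where 4.39% of all genes did by limma. The median change was -0.04 against -0.06 over all genes. Setting aside Cox6a1, Cox8a and Cox6b2, the 95% intervals of the remaining 43 members lay within -0.22 to 0.21, so changes beyond these bounds lie outside those intervals. The summed level was 33670 to 36787 TPM, overlapping with Control.

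With both tumor-bearing groups set against both tumor-free groups (7 against 10 mice), 27 members were called, 25 lower and 2 higher, where 5.98% of all genes tested were called lower and 38.8% higher. The median change was -0.08. Complex V had 13 of 17 members lower, complex III 6 of 9, complex II 3 of 4 and complex IV 3 of 16, with 2 higher. The smallest p-values belonged to Cox7a1 (-0.24, SE 0.03, limma adjusted p = 0.00056), Uqcrc2 (-0.18, limma adjusted p = 0.0013) and Uqcrc1 (-0.18, limma adjusted p = 0.0018). In order of p, Atp5f1 at -0.15 (limma adjusted p = 0.0019) and Atp5g3 at -0.15 (limma adjusted p = 0.0033) came next. The higher ones were Cox6b2 (0.37, limma adjusted p = 0.0062) and Cox8a (0.43, limma adjusted p = 0.044), and the Cox8a call held in 6 of 17 such refits. These directions held on the TPM scale. Relative to myofiber genes 28 members were called, each of them higher, where 68.1% of all genes were called higher. With the B cell score in the model 2 were called, where 4.17% of all genes were.

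The interaction asks whether the rFibcd1 effect differs between tumor-bearing and tumor-free mice. By limma 0 of 46 members were called, as 0% of all genes tested were, and 37 members reached an unadjusted p under 0.05, 36 of them positive, where 8.58% of all genes did. The median interaction was 0.19 against -0.06 over all genes. Cox6a2 was highest at 0.45 (limma adjusted p = 0.14), and Atp5l had the smallest adjusted p (0.28, limma adjusted p = 0.11). Cox6b2 was lowest at -0.43 (limma adjusted p = 0.51).

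The partners of these subunits were measured in the same libraries. Of the 6 mitochondrially encoded subunits of complexes III to V, 3 were lower in LLC vs Control, with a median of -0.12: mt-Cytb of complex III (-0.16, limma adjusted p = 0.013), mt-Co3 (-0.14, limma adjusted p = 0.028) and mt-Co1 (-0.15, limma adjusted p = 0.041) of complex IV. mt-Co2 (-0.10), mt-Atp6 (-0.10) and mt-Atp8 (-0.09) did not pass. Cytochrome c (Cycs) was lower at -0.14 (limma adjusted p = 0.041). The citrate cycle, which feeds complex II, had 12 of 13 genes lower with a median of -0.23, and the nuclear complex I subunits 31 of 38 with a median of -0.18. These values are on the TPM scale, as for the members, where 6.02% of all genes tested were called lower and 29.7% higher.

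Assembly factors insert cofactors and subunits into each complex without staying in it. Of the complex IV factors 8 of 22 tested were lower and 1 was higher in LLC vs Control (median -0.10), where 6.02% of all genes were called lower and 29.7% higher. The lower ones included Coa7 (-0.35, limma adjusted p = 0.0094), Taco1 (-0.31, limma adjusted p = 0.010), which starts translation of mt-Co1, and Lrpprc (-0.26, limma adjusted p = 0.011), which stabilizes mitochondrial messages. Surf1, needed early in complex IV assembly, was the higher one (0.25, limma adjusted p = 0.015). In complex III, Uqcc1, which acts with mt-Cytb, was lower (-0.35, limma adjusted p = 0.0073) among 6 factors, in complex II Sdhaf4 (-0.19, limma adjusted p = 0.013) among 4, and in complex V Tmem70 and Atpaf1 (both -0.21, limma adjusted p of 0.014 and 0.015) among 4.

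Of the 12 regulators of respiratory genes, 4 were lower and 1 higher in LLC vs Control, where 6.02% of all genes tested were called lower and 29.7% higher. Ppargc1a, the PGC-1 alpha coactivator, stood at 10.4, 11.9 and 10.1 TPM in LLC and at 14.8, 39.2, 33.6, 16.1 and 62.1 TPM in Control, which did not overlap (-1.34, SE 0.40, limma adjusted p = 0.021). The Control + rFibcd1 mice, at 16.4, 20.6, 24.3, 10.1 and 17.4 TPM, overlapped with LLC. Its partner receptor Esrra stood at 117, 125 and 110 TPM in LLC and at 124 to 151 TPM in Control (-0.22, limma adjusted p = 0.017). The mitochondrial transcription factors Tfam (-0.17, limma adjusted p = 0.027) and Tfb2m (-0.16, limma adjusted p = 0.024) were lower and Nrf1 was higher (0.23, limma adjusted p = 0.036). Whether any regulator acts on the members was not tested.

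Among themselves most members rose and fell together over the 17 mice. The median correlation of a member with the other members was highest for Sdhb (r = 0.86) and Atp5g3 (r = 0.86), and the closest pairs were Uqcr11 with Uqcrq (r = 0.98) and Uqcrc1 with Uqcrc2 (r = 0.98), both within complex III. Outside this block, Cox6a1, Cox8a, Cox6b2, Cox7a2l and Cox4i2 had negative medians (r = -0.55, -0.53, -0.70, -0.25 and -0.10), and Atp5g2 had 0.17. Cox6a1 and Cox8a were closest to each other (r = 0.97). Of the muscle forms, Cox6a2 was closest to Atp5l (r = 0.94), Cox8b to Cox7b (r = 0.89) and Cox7a1 to Atp5g3 (r = 0.93). These are correlations of log2 values over 17 mice in 4 groups that share one TPM scale, given as a description.

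The promoter table held windows for 37 of the 48 members. In the 300 bases from 250 before to 50 after the start, NRF1 letters were found in 10 of the 37 (27.0%, against 5.19% of 27025 genes in the table), in 6 of 16 members of complex V, 2 of 3 of complex II, 1 of 5 of complex III and 1 of 13 of complex IV. ETS letters were found in 12 (32.4% against 9.93%), ERR letters in 5 (13.5% against 5.38%), YY1 letters in 4, all in complex V (10.8% against 2.76%), and SP1 letters in 14 (37.8% against 38.2%). Of the 37 members, 9 held none of the 5, Cox7a1 and Cox8b among them. No test was run on these shares.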

How the data were processed

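RNA of 17 diaphragms was sequenced in read pairs. Per the study's methods and the labels, the authors mapped reads to mm10 (GRCm38) in CLC Genomics Workbench and deposited 1 table of TPM values per gene and mouse. The annotation release, the strand setting of counting and any batch are not given in the sources used here. TPM removes sequencing depth, and values depend on the mitochondrial share of each library. Depth was estimated from the steps of low values, of which 75.4% to 83.6% were whole reads within 0.02 once multiplied by exon length. As these are not counts, no count test was used.

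Values were taken as log2(TPM + 1), and fold changes are on that scale, which understates changes of low genes. Genes at 1 TPM or more in at least 3 mice (13305) were fitted with limma 3.58.1 in R 4.3.3, with 4 groups in 1 model and a trend in the prior variance. Tests were two-sided, p-values were adjusted by Benjamini-Hochberg over all genes tested, and 0.05 was the threshold. Each mouse is 1 replicate, and since litters or batches are not labelled, p-values measure the spread between these mice. Comparisons against Control share the Control mice, and those against LLC share the LLC mice. Means over tumor-bearing and tumor-free mice were weighted by group size.

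Members, gene lists and tests were chosen with earlier results of these data known. Members named with values were, in each complex, the 2 with the smallest p and the one with the smallest change in LLC vs Control, all of complex II, the members called in other comparisons (up to 5), paralogs, and the 3 most abundant. Other values were shown where a comparison turned on them. Members matched to GENCODE vM21 (GRCm38) gave coordinates, and RefSeq GRCm38.p6 gave promoter windows. Alternatives were a pseudocount of 0.1, no filter, 4 other scalings, a replicate block, a B cell covariate, no trend, only the groups compared, Dunn's test after Kruskal-Wallis, and each mouse left out. The limma fit was tested on data simulated for LLC vs Control with 13305 genes, 50 of them changed at each size. It called 22% of genes changed by a log2 of 0.25 and 60% of those changed by 0.5. In the data 4759 genes were called, which sets another adjusted threshold, so these shares need not hold for the members.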

Additional observations from a re-analysis of the deposited data

Results flagged for a closer look

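In 84 checks of named members within groups of 4 or 5 mice, 7 values lay far from the other mice of their group, where chance flags about 5% of checks. Cox6a1 stood at 191 TPM in Control + rFibcd1 replicate 1 against 97.1 to 116 TPM in the other mice of that group, and Cox8a at 317 TPM in the same mouse against 197 to 211 TPM. The white adipocyte markers summed to 1876 TPM in that mouse and to 661 to 772 TPM in the other Control + rFibcd1 mice. Cox7a2 stood at 515 TPM in Control + rFibcd1 replicate 2 against 566 to 585 TPM.

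In LLC + rFibcd1 replicate 2, Cox8b stood at 3084 TPM against 3394 to 3442 TPM in the other mice of the group, Atp5g3 at 794 TPM against 847 to 852 TPM, and Cox7a2l at 294 TPM against 275 to 277 TPM. The same mouse had the most white adipocyte marker TPM of its group (1856). Cox6b1 stood at 1357 TPM in LLC + rFibcd1 replicate 1 against 1287 to 1295 TPM.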

How the results depend on the processing

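LLC vs Control depended on the scale and on 1 mouse. The median over members, -0.19, was -0.395 with median-ratio scaling, -0.299 rescaled without mitochondrially encoded genes, -0.282 after quantile normalization, -0.132 with the B cell covariate and 0.038 scaled to the myofiber list, where 9 members were called. Called members were 0 with the B cell covariate and 0 by Dunn's test (29 and 33 at an unadjusted p under 0.05). Over all genes tested, 0.0526% and 0% were called, and 12.6% and 37.5% reached an unadjusted p under 0.05. Dunn's test called 0% of all genes in each comparison it covered. Leaving out a mouse gave 1 to 37 called members, the 1 without LLC replicate 3, with medians of -0.224 to -0.149. In LLC + rFibcd1 vs LLC the median was 0.296 (median-ratio), 0.210 (without mitochondrial genes) and 0.065 (myofiber), and 0.112 to 0.181 without a mouse, with 0 to 3 called. In Control + rFibcd1 vs Control it was 0.042 with median-ratio scaling and -0.047 to -0.022 without a mouse. In LLC + rFibcd1 vs Control it was -0.094 (median-ratio), -0.090 (quantile) and 0.108 (myofiber), and -0.041 to -0.017 without a mouse. The 1 call there became 0 with no filter, median-ratio scaling, rescaling without mitochondrial genes, the B cell covariate, no trend or Dunn's test, 2 with quantile and 12 with myofiber scaling, and 0 to 2 without a mouse.

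For tumor-bearing vs tumor-free the median was -0.247 (median-ratio), -0.168 (without mitochondrial genes), -0.170 (quantile) and 0.091 (myofiber), and -0.1 to -0.051 without a mouse, with 16 to 31 called, and 2 with the B cell covariate. The interaction median was 0.252 and 0.095 with median-ratio and myofiber scaling, and 0.146 to 0.218 without a mouse, with 0 to 2 called.

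Scaling to the myofiber list turned the sign in LLC vs Control for complex IV (0.069), complex V (0.033), Sdhd (0.036), Sdhc (0.054), Uqcr10 (0.099), Cox6c (0.005), Atp5g2 (0.219), Cox7a2 (0.124), Cox4i1 (0.072) and Cox6b1 (0.134), and in LLC + rFibcd1 vs Control for complex III (0.103). In tumor-bearing vs tumor-free it did so for complexes II (0.042), III (0.085), IV (0.148) and V (0.080), and for Sdhb (0.029), Sdhd (0.056), Sdhc (0.120), Uqcr10 (0.136), Cox6c (0.071), Atp5g3 (0.028), Atp5f1 (0.023), Cox6a2 (0.164), Cox7a2 (0.119), Cox4i1 (0.112), Cox6b1 (0.156), Cox5a (0.112), Cox5b (0.141), Atp5g1 (0.040), Atp5a1 (0.029) and Atp5sl (0.061). Cox7a2l turned with median-ratio scaling (-0.176 in LLC vs Control, -0.119 in tumor-bearing vs tumor-free). In tumor-bearing vs tumor-free, Cox8b turned after quantile normalization (-0.186), and the complex IV median with the B cell covariate (0.017) and without LLC replicate 3 (0.011), where leaving out a mouse gave -0.058 to 0.011. For calls lost or turned, the cause was not tested.

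Replicate numbers did not pair mice: 4 of 22 pairs with the same number in different groups correlated above 0.1 (median -0.061). With the replicate block, 0 members were called in LLC vs Control (35 at an unadjusted p under 0.05, median -0.174), 0 in LLC + rFibcd1 vs Control and 16 in tumor-bearing vs tumor-free. Over all genes tested, 0.0376%, 1.3% and 28.4% were called in these comparisons.

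With 3 LLC mice, small changes pass only where spread is low. TPM are shares, so an absolute level per fiber or per cell is not measured, and RNA says nothing of protein or assembled complexes.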
